A study of Mus musculus with 15 samples.

Results

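Interferon-stimulated genes and genes of the MHC class I pathway were examined as a set of 39 mouse genes named by symbol. The set comprised 25 genes responsive mainly to type I interferon, 6 responsive mainly to type II interferon (interferon gamma) and 8 of MHC class I antigen processing and presentation. On the array, 34 of the 39 had a probe set annotated to that gene alone, and 30 of those lay above the filter on low signal and were tested (19 type I, 5 type II and 6 MHC class I genes) among 12102 genes tested in all. Dhx58, Oas3, Mx1 and Mx2 lay below the filter. Isg15, Gbp2, H2-K1 and H2-D1 were present only on probe sets annotated to several genes and Ifi44 was on none of the annotated probe sets, so no values are given for these 5. Members passed the filter by their mean over all arrays, whatever their group.

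The RNA came from left ventricular cardiomyocytes isolated from male C57Bl/6NT mice aged 8 to 9 months. The mice received a single whole-body dose of 90 cGy of 1 GeV protons or a sham exposure, and hearts were taken at labelled days 1, 3, 5, 12 and 26. The series' design text names days 1, 3, 7, 14 and 28 instead, and it also names an exposure to iron ions, which was not analysed here. Day labels follow the sample titles throughout. There were 15 arrays: 3 sham arrays (2 of day 1 and 1 of day 3), which served together as the control group for every day, and proton arrays at day 1 (2), day 3 (3), day 5 (3), day 12 (2) and day 26 (2). Days 5, 12 and 26 had no sham array of their own, so for these days age and time in housing cannot be told apart from exposure. Proton day 5 replicates 1 and 2 differed by an SD of only 0.0768 in log2 signal over the genes tested, against 0.222 to 0.527 for the other pairs of arrays, and were averaged and counted as 1 sample, which left 14 samples. Whether each array represents a separate mouse is not given in the labels, so p-values measure the spread between these samples, which may be technical. Cells were released by collagenase perfusion of the heart and returned stepwise to calcium, and the labels allow for a few inflammatory and endothelial cells in the suspension.

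Interferons are cytokines released on viral infection and also after nucleic acid from damaged cells reaches cytosolic or endosomal sensors. Type I interferons bind a receptor that activates STAT2 and IRF9, which bind the interferon-stimulated response element (ISRE). Interferon gamma acts mainly at the gamma-activated site (GAS), and induces the transcription factor IRF1. Both kinds of interferon raise MHC class I presentation, in which immunoproteasome subunits (PSMB8, PSMB9) cut peptides, the TAP1-TAP2 transporter carries them into the endoplasmic reticulum, tapasin (TAPBP) helps to load them, and the light chain beta-2-microglobulin (B2M) holds the MHC heavy chain at the cell surface. In the heart, macrophages and endothelial cells respond to interferon as well as cardiomyocytes.

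Promoter windows are shown for some of the members whose values are described below, with matches to the 2 motifs named above. Windows of 300 bases (250 before and 50 after an annotated start, RefSeq, GRCm38.p6) were found for 31 of the 39 members, 37 windows in all, and were searched on both strands for an ISRE core (GAAA, any 2 bases, GAAA) and a GAS core (TTC, any 3 bases, GAA, which reads the same on either strand). The ISRE core occurred in 13 of the 37 member windows (35.1%) against 3.44% of all 32851 windows, and the GAS core in 6 (16.2%) against 8.3%. By class, an ISRE core stood in 9 of 20 type I windows (45%), 3 of 9 type II windows (33.3%) and 1 of 8 MHC class I windows (12.5%), and a GAS core in 3 (15%), 2 (22.2%) and 1 (12.5%) of them. Counted by gene, an ISRE core occurred in the same share of type I and type II genes (50%). A match is a description of these letters and not evidence of binding. Each sequence below is written 5′ to 3′ on the strand of its gene, with motif matches in capitals.
Ifit3 (chr19:34583279-34583578, plus strand): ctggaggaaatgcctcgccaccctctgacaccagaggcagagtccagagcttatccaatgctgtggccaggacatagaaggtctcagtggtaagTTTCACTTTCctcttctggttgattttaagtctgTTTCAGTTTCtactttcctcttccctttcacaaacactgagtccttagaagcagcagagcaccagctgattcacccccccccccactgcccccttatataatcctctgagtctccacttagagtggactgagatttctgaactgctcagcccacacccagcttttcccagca
Rsad2 (chr12:26456403-26456702, minus strand): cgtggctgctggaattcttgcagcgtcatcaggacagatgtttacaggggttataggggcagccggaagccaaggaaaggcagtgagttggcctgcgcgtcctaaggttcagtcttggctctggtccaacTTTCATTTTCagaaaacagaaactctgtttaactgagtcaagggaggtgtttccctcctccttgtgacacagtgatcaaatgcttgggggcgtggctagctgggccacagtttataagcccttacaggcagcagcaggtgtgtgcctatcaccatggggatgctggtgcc
Cxcl10 (chr5:92348840-92349139, minus strand): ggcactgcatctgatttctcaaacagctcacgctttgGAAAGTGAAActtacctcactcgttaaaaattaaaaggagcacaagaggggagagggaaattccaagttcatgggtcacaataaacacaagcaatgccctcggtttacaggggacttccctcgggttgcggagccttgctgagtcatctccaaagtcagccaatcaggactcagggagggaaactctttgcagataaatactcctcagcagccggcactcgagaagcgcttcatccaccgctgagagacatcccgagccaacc
Cxcl9 (chr5:92328030-92328329, minus strand): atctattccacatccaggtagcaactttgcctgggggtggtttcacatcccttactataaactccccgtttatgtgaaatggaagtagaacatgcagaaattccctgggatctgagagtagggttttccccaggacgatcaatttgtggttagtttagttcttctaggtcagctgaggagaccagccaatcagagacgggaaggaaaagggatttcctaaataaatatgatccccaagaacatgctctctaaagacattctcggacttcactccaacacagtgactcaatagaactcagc
Gbp3 (chr3:142559794-142560093, plus strand): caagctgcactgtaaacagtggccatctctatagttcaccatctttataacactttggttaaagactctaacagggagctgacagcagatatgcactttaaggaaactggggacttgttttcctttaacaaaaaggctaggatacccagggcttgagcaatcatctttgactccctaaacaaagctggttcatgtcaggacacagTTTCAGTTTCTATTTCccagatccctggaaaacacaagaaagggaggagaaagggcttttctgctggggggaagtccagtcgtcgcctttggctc
Irf1 (chr11:53769764-53770063, plus strand): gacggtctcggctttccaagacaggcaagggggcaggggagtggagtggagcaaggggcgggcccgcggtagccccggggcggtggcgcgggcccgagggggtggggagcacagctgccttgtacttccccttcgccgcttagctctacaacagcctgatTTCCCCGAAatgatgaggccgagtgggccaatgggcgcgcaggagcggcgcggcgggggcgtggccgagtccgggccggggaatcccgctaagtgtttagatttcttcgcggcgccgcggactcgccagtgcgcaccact
B2m (chr2:122147437-122147736, plus strand): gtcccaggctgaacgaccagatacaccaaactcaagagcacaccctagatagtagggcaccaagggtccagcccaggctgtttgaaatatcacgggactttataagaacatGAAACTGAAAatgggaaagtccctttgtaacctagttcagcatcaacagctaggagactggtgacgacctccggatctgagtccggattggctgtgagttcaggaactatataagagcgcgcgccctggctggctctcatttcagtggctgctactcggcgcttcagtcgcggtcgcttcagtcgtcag
Tap1 (chr17:34187306-34187605, plus strand): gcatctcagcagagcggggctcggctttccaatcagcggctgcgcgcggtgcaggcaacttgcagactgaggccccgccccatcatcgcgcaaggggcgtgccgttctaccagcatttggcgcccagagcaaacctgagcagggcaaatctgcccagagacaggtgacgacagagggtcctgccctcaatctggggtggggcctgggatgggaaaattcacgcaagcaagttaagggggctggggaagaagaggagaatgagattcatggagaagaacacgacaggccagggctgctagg
Ifit3 has a pair of ISRE cores, their first bases 156 and 122 bases before the start, and Rsad2 has 1 at 120 bases before it. Cxcl10 has an ISRE core at 213 bases before its start, while the window of its neighbour Cxcl9 (1 protein-coding gene lies between them in RefSeq) holds neither motif. The Gbp3 window shown has a pair of overlapping ISRE cores, 45 and 39 bases before that start, and the Irf1 window shown has a GAS core at 90 bases before its start. Gbp3 and Irf1 each have a further annotated start, whose window is not shown and holds neither motif. The windows of Irf7, Irf9, Oasl2, Tapbp and Psmb9, also not shown, hold neither motif. B2m holds an ISRE core at 139 bases before its start. The Tap1 window holds neither motif. It shares 275 bases with the window of Psmb9 on the opposite strand, the pair of genes being transcribed apart from one stretch of chromosome 17. Psmb8, next to Tap1 on its other side, has a GAS core at 97 bases before its start. Motifs may also lie outside these windows.

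The values are log2 signals, and every fold below is a ratio of group means on that scale. Array medians lay between 4.90 and 5.16. The 8 cardiomyocyte markers had mean log2 signals of 11.1 to 12.6 and their mean varied between samples by no more than -0.04 to 0.05 around its average. Markers of other cells were also above the filter: 12 of 14 for macrophages and monocytes, 12 of 12 for endothelial cells, 8 of 9 for fibroblasts and 5 of 11 for T and NK cells. Those 5 were Cd3e, Cd8a, Cd8b1, Cd4 and Prf1. The NK cell genes Nkg7, Klrb1c and Ncr1 lay below the filter and are not part of the T and NK values given below. Markers of other cells differed between samples by far more than the cardiomyocyte markers, as described with the members below. In bulk RNA, fewer cells of a type and less RNA per cell cannot be told apart.

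No member passed an adjusted p of 0.05 in limma's moderated test at any day against sham, in the mean of the proton days against sham, in late against early proton days (mean of days 12 and 26 minus mean of days 1 and 3), or in either of 2 tests over the 5 days at once. The smallest adjusted p among the 30 members was 0.754 on day 1, 0.317 on day 3, 0.531 on day 5, 0.617 on day 12 and 0.266 on day 26. It was 0.378 for the mean of the proton days, 0.200 for late against early days, 0.413 in the joint test of the 5 days with sham and 0.466 in the joint test of the proton days with one another. Over all genes tested, the share called in those 9 tests was 0%, 0.00826%, 0.0496%, 0%, 0.0413%, 0.0248%, 0.00826%, 0.0248% and 0%, in the same order, so few genes of any kind passed in these groups of 2 or 3 samples. At an unadjusted p under 0.05, 0, 2, 1, 0 and 3 of the 30 members passed on days 1, 3, 5, 12 and 26, where 5.5%, 8.86%, 8.99%, 8.01% and 14.3% of all genes did. The mean of the proton days had 1 such member (12% of all genes), late against early days had 7 (13.2%), and the joint tests with sham and among the proton days had 2 (9.54%) and 4 (8.43%). By direction, both members of day 3, Cxcl9 and Irf7, were below sham (2.57% of all genes), Ifit2 was below on day 5 (4.78%), and Tap1, Bst2 and Tapbp were above on day 26 (8.6%), as was Tapbp in the mean of the proton days (6.19%). The 7 members that passed in late against early days were all above 0 (6.86% of all genes), and none passed below it (6.38%). Without proton day 3 replicate 3 these counts were 11 on day 3 (7.78% of all genes in that fit) and 7 on day 26 (17.2%). With the replicate number as a block the count of day 26 was lower than in the main fit. The 5 contrasts with sham share the same 3 control samples. The values below are therefore descriptions with their standard errors.

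The direction of the members was nevertheless uneven over time. On day 1, 20 of 30 members had a log2 difference from sham above 0, where 48.3% of all genes tested did. On day 3 this held for 7 members (51% of all genes), on day 5 for 16 (51.2%), on day 12 for 27 (51.9%) and on day 26 for 28 (58.8%). In the mean of the proton days it held for 20 (53.3%). The median log2 difference of the type I genes was 0.14, -0.15, -0.02, 0.23 and 0.33 on days 1, 3, 5, 12 and 26. For the type II genes it was 0.45, -0.22, 0.11, 0.71 and 0.20, and for the MHC class I genes 0.14, -0.17, 0.10, 0.26 and 0.29. Over all genes tested, the medians of the 5 days stayed between -0.01 and 0.05. In this fit day 3 was the only proton day on which the medians of all 3 classes lay below 0, and days 12 and 26 were those on which nearly all members lay above the sham mean. Several of these medians moved with a single array or with the amount of signal from other cells. Macrophage and monocyte markers had medians of 0.58, -0.11, 0.25, 0.44 and 0.53 on days 1, 3, 5, 12 and 26, with 12, 3, 11, 12 and 12 of 12 above 0, and endothelial markers 0.32, -0.14, 0.09, 0.40 and 0.47. The 8 fibroblast markers had 0.51, 0.16, 0.44, 0.54 and 0.55, above sham on day 3 too, and the 4 neutrophil markers 1.37, 0.22, -0.16, 0.29 and 0.15. Without proton day 12 replicate 2 the day 12 medians of the type I, type II and MHC class I genes were -0.012, 0.045 and 0.073, and without replicate 1 they were 0.62, 1.16 and 0.39. The MHC class I median of day 3 was -0.34 without proton day 3 replicate 1, but 0.011 against the sham array of the same day and 0.13 with the filter at the 75th percentile of signal. With a score of other-cell markers as a covariate, the type I and type II medians of day 1 were -0.16 and -0.16, and those of day 26 were 0.0022 and -0.35.

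**Figure D1:**
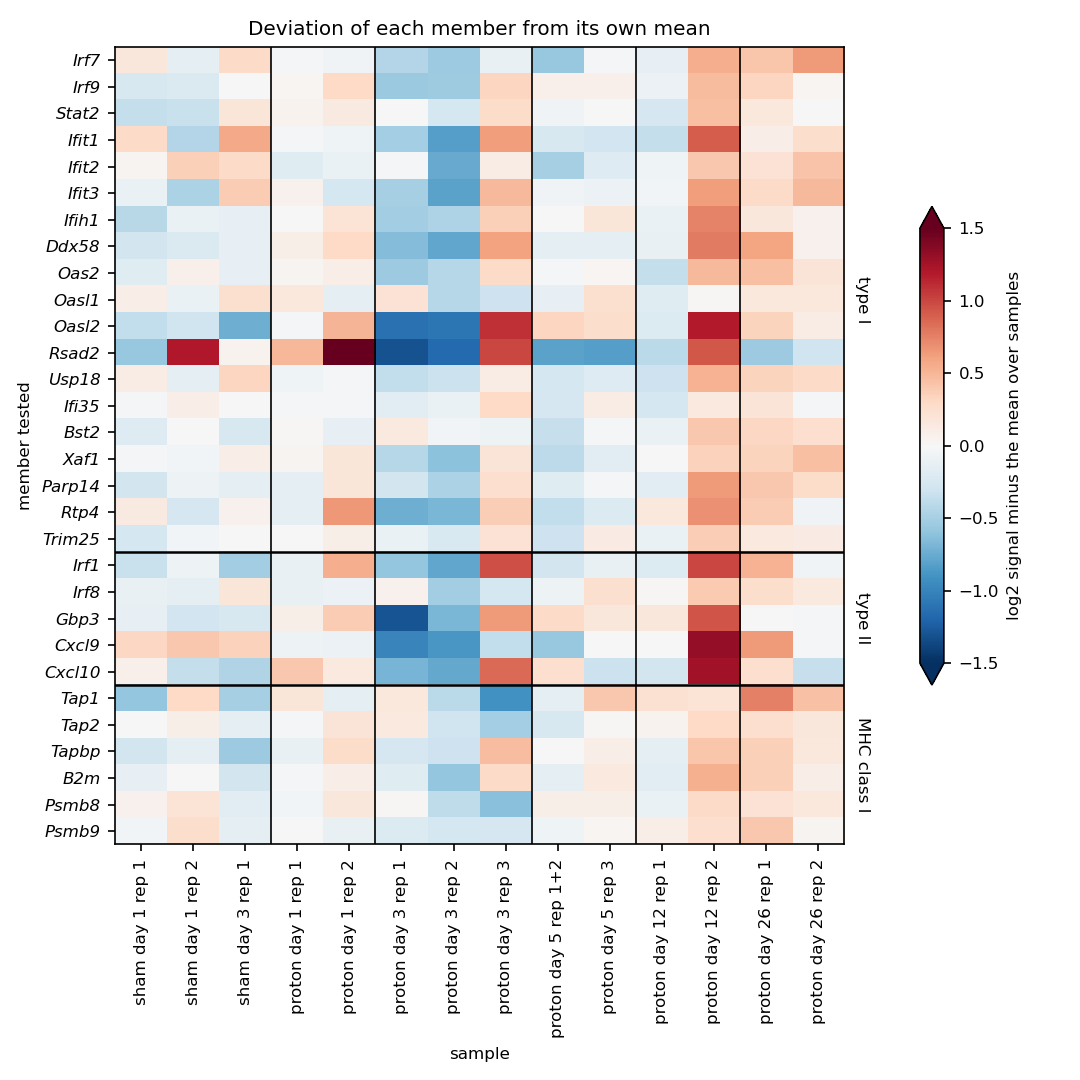
Log2 signal of each of the 30 tested members minus its own mean over the 14 samples, with members in rows by class and samples in columns by group. Red is above and blue below the mean, and the color scale ends at 1.5 on either side. Proton day 12 replicate 2 is red in nearly every row, proton day 3 replicates 1 and 2 are mostly blue, and Tap1, Tap2 and Psmb8 are blue in proton day 3 replicate 3, where most other rows are red.

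Among the regulators of the type I response, Irf7, the transcription factor that amplifies interferon alpha production, varied most clearly with day. Its log2 signal was 6.15, 5.83 and 6.27 in the sham samples, 5.96 and 5.93 on day 1, 5.55, 5.44 and 5.87 on day 3, 5.41 and 5.95 on day 5, 5.86 and 6.53 on day 12, and 6.40 and 6.62 on day 26. Day 3 replicates 1 and 2 lay below every sham sample, replicate 3 lay among them, and both day 26 samples lay above them. The log2 difference from sham was -0.47 ± 0.20 on day 3 (adjusted p = 0.542), -0.40 ± 0.22 on day 5 and 0.43 ± 0.22 on day 26 (adjusted p = 0.404), and late minus early days gave 0.57 ± 0.17, a ratio of 1.49 (adjusted p = 0.212). Of its variance over the 14 samples, 67.9% lay between groups, against a median of 40.9% over the members and 42.6% over all genes tested. Irf9, the DNA-binding subunit of the complex with STAT2, measured 6.50, 6.52 and 6.74 in the sham samples, 6.77 and 7.05 on day 1, 6.18, 6.21 and 7.07 on day 3, 6.82 and 6.82 on day 5, 6.66 and 7.22 on day 12, and 7.07 and 6.77 on day 26. It was above all sham samples in 8 of 11 proton samples and below all of them in day 3 replicates 1 and 2. Its difference was 0.33 ± 0.25 on day 1 and 0.34 ± 0.25 on day 26, and with the other-cell covariate the day 1 value was -0.019. Stat2, its partner, ranged only from 5.31 to 6.11 and had a late minus early difference of 0.04 ± 0.17.

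The IFIT proteins bind foreign RNA and block its translation. Ifit2 measured 5.21, 5.53 and 5.46 in the sham samples, 4.99 and 5.08 on day 1, 5.16, 4.42 and 5.29 on day 3, 4.67 and 4.98 on day 5, 5.11 and 5.58 on day 12, and 5.39 and 5.60 on day 26. Of 11 proton samples 7, among them both of day 1 and both of day 5, were below every sham sample. The difference was -0.37 ± 0.24 on day 1, -0.45 ± 0.22 on day 3 and -0.57 ± 0.24 on day 5 (adjusted p = 0.531), with a late minus early difference of 0.42 ± 0.18 (adjusted p = 0.353). Its neighbour Ifit3, with no other protein-coding gene between them in RefSeq, measured 7.04, 6.67 and 7.52 in the sham samples, 7.21 and 6.88 on day 1, 6.64, 6.33 and 7.63 on day 3, 7.09 and 7.05 on day 5, 7.10 and 7.77 on day 12, and 7.43 and 7.62 on day 26. Sham samples alone spanned 6.67 to 7.52, so the day 26 values overlapped them (0.45 ± 0.34). Ifit1 measured 6.25, 5.53 and 6.54 in the sham samples, 5.94 and 5.90 on day 1, 5.46, 5.14 and 6.59 on day 3, 5.72 and 5.68 on day 5, 5.61 and 6.88 on day 12, and 6.07 and 6.23 on day 26. Its SD was 0.76 within day 3 and 0.90 within day 12, more than any of its group differences.

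Ddx58 (RIG-I) and Ifih1 (MDA5) encode cytosolic sensors of RNA. Ddx58 measured 6.21, 6.26 and 6.35 in the sham samples, 6.57 and 6.78 on day 1, 5.83, 5.70 and 7.08 on day 3, 6.35 and 6.33 on day 5, 6.36 and 7.26 on day 12, and 7.07 and 6.54 on day 26. It was above every sham sample in all samples of days 1, 12 and 26 and in day 3 replicate 3, and below in day 3 replicates 1 and 2. Ifih1 measured 5.34, 5.65 and 5.62 in the sham samples, 5.74 and 5.95 on day 1, 5.22, 5.28 and 6.10 on day 3, 5.75 and 5.93 on day 5, 5.64 and 6.49 on day 12, and 5.91 and 5.82 on day 26, with differences of 0.31 ± 0.27 on day 1, 0.53 ± 0.27 on day 12 and 0.33 ± 0.27 on day 26. Dhx58 (LGP2), the third member of this sensor family, lay below the filter, at group means of 4.18 to 4.77.

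Members of the 2′-5′-oligoadenylate synthetase family differed from one another. Oasl2 measured 7.33, 7.40 and 6.97 in the sham samples, 7.68 and 8.21 on day 1, 6.58, 6.62 and 8.79 on day 3, 8.02 and 7.96 on day 5, 7.49 and 8.89 on day 12, and 8.04 and 7.81 on day 26. All samples of days 1, 5, 12 and 26 lay above the highest sham sample (7.40), as did day 3 replicate 3 (8.79), while day 3 replicates 1 and 2 (6.58 and 6.62) lay below the lowest. Its differences were 0.71 ± 0.56 on day 1, 0.76 ± 0.56 on day 5, 0.96 ± 0.56 on day 12 and 0.69 ± 0.56 on day 26, with adjusted p-values of 0.758, 0.732, 0.630 and 0.571. The SD within day 3 was 1.26, larger than each of these differences. With the other-cell covariate the Oasl2 difference was -0.17 on day 1 and -0.18 on day 26. Oasl1, its neighbour with no protein-coding gene between, ranged from 5.51 to 6.18 and exceeded the sham samples in none of the 11 proton samples. Oas2, which makes 2-5A to activate RNase L, had differences of -0.15 ± 0.24 on day 3 and 0.40 ± 0.26 on day 26.

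Rsad2 (viperin), an antiviral enzyme of the endoplasmic reticulum, had the widest range of the 30 members, 3.52 log2 units. It measured 6.69, 8.46 and 7.31 in the sham samples, 7.75 and 9.47 on day 1, 5.94, 6.09 and 8.26 on day 3, 6.46 and 6.43 on day 5, 6.85 and 8.19 on day 12, and 6.71 and 6.96 on day 26. The sham samples alone spanned 6.69 to 8.46. Day 1 replicate 2, its highest sample, also had the highest mean deviation of the neutrophil markers (1.87), whose part in it was not tested. The difference was 1.12 ± 0.72 on day 1, -1.04 ± 0.72 on day 5 and -0.65 ± 0.72 on day 26, none past the threshold, and Rsad2 was the sole member with a late minus early difference below 0 (-0.51 ± 0.53). Bst2 (tetherin), which holds budding viruses at the cell surface, measured 6.29, 6.49 and 6.25 in the sham samples, 6.50 and 6.36 on day 1, 6.63, 6.45 and 6.41 on day 3, 6.14 and 6.46 on day 5, 6.39 and 6.89 on day 12, and 6.80 and 6.74 on day 26. Both day 26 samples were above every sham sample, a difference of 0.42 ± 0.16, 1.34-fold (adjusted p = 0.271). Xaf1, an interferon-induced partner of the apoptosis inhibitor XIAP, measured 5.42, 5.41 and 5.55 in the sham samples, 5.49 and 5.63 on day 1, 5.02, 4.84 and 5.64 on day 3, 5.06 and 5.29 on day 5, 5.45 and 5.79 on day 12, and 5.79 and 5.90 on day 26. Its difference was -0.29 ± 0.19 on day 3 and 0.38 ± 0.21 on day 26, and late minus early days gave 0.37 ± 0.16 (adjusted p = 0.350). Parp14, an ADP-ribosyltransferase, measured 5.51, 5.71 and 5.65 in the sham samples, 5.65 and 5.97 on day 1, 5.51, 5.31 and 6.04 on day 3, 5.60 and 5.76 on day 5, 5.61 and 6.43 on day 12, and 6.19 and 6.06 on day 26. Both day 26 samples were above sham (0.50 ± 0.24), as were 1 or more samples of every other day. Usp18, the protease that removes ISG15 from proteins and dampens the receptor, had -0.32 ± 0.23 on day 5 and 0.21 ± 0.23 on day 26. Trim25, the ubiquitin ligase that activates RIG-I, and Rtp4 differed on day 26 by 0.24 ± 0.18 and 0.18 ± 0.34. Ifi35 was the flattest member, from 6.16 to 6.73, with 10.8% of its variance between groups.

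**Figure D2:**
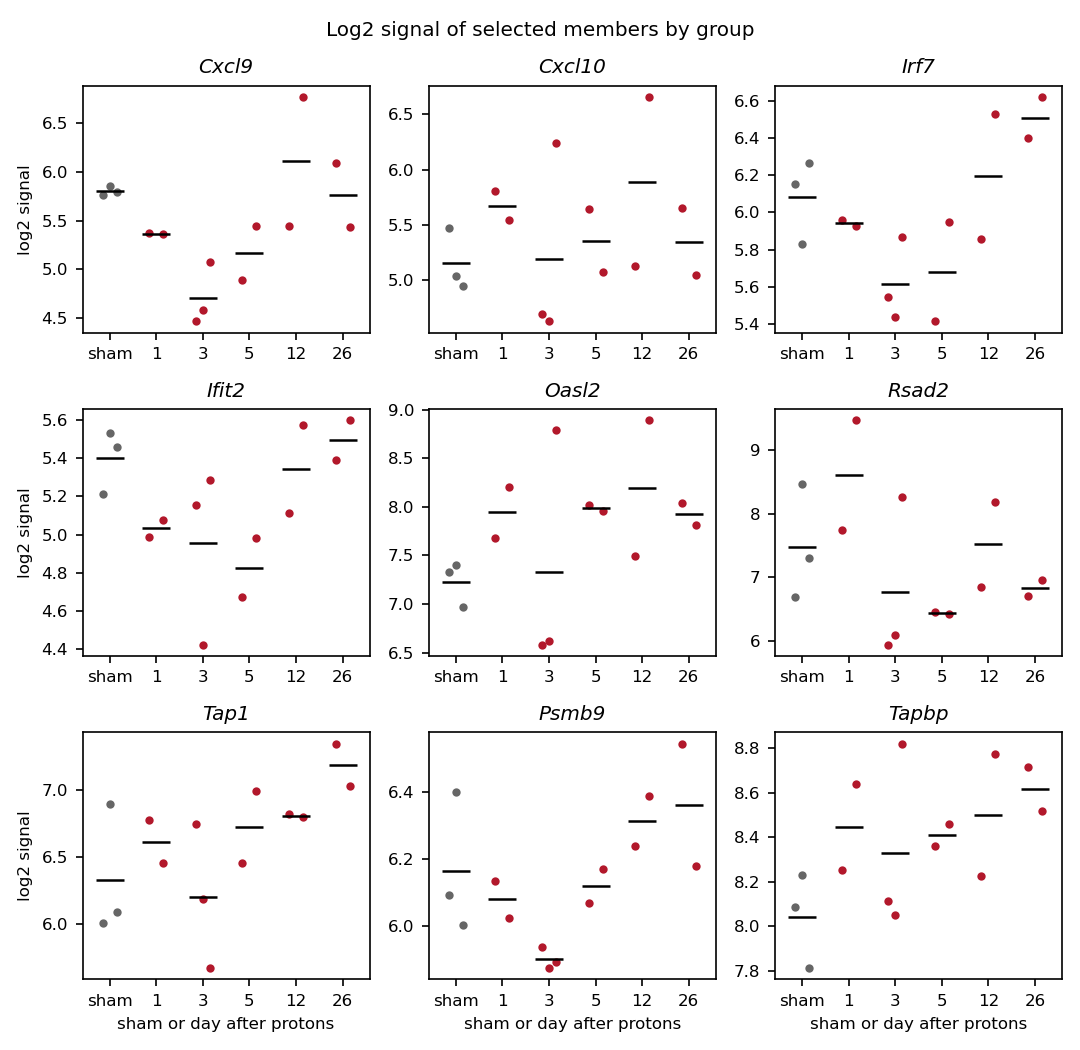
Log2 signal of 9 members (vertical axes, each with its own range that does not start at 0) in the 3 sham samples (gray) and in the proton samples by day (red), with 1 point per sample and a bar at the group mean. Cxcl9 lies below the sham samples on days 1, 3 and 5, Tap1 and Irf7 lie above them on day 26, and Oasl2, Rsad2 and Cxcl10 have 1 day 3 sample far from the other 2.

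Of the type II genes, Cxcl9, a chemokine that draws T cells through the receptor CXCR3, had the largest difference on day 3. It measured 5.77, 5.86 and 5.80 in the sham samples, 5.37 and 5.36 on day 1, 4.46, 4.58 and 5.08 on day 3, 4.89 and 5.44 on day 5, 5.45 and 6.77 on day 12, and 6.09 and 5.44 on day 26. The sham mean was 5.81 ± 0.05 (SD, n = 3) and the day 3 mean 4.71 ± 0.33 (SD, n = 3). All 7 samples of days 1, 3 and 5 were below the lowest sham sample, and the days 12 and 26 samples lay on both sides of it. The difference was -0.44 ± 0.34 on day 1, -1.10 ± 0.30 on day 3 and -0.64 ± 0.34 on day 5. The day 3 value is a 2.14-fold lower signal, rank 122 of 12102 genes by p, with an adjusted p of 0.317. The day 3 mean lies under the filter level of 5.00, where low signals are less certain, so the size of this fold is too. On this day 2 of 30 members, Cxcl9 and Psmb9, had all samples below every sham sample and none had all above, where 4.39% and 8% of all genes did. Late minus early days gave 0.90 ± 0.25, 1.86-fold (adjusted p = 0.200), with every late sample above every early sample. Adding the other-cell score to the fit left the day 3 difference at -1.07 with an adjusted p of 0.0270 (0.95% of all genes were called in that fit), within a range of 0.0270 to 0.745 over the alternatives tried, and the late minus early difference at 0.70 with an adjusted p of 0.0399 (3.3% of all genes called), in a range of 0.0399 to 0.517. That was the only setting tried in which a member passed the threshold in these 2 contrasts.

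Cxcl10, a chemokine for the same receptor, had sham values between those of its day 3 samples. It measured 5.47, 5.04 and 4.94 in the sham samples, 5.80 and 5.55 on day 1, 4.69, 4.62 and 6.24 on day 3, 5.64 and 5.07 on day 5, 5.12 and 6.66 on day 12, and 5.65 and 5.05 on day 26. Both day 1 samples were above every sham sample, day 3 replicates 1 and 2 were below and replicate 3 was above. The differences were 0.52 ± 0.50 on day 1, 0.04 ± 0.44 on day 3 and 0.74 ± 0.50 on day 12, and the last became -0.027 without proton day 12 replicate 2. The difference between Cxcl9 and Cxcl10 was not tested. Gbp3, a guanylate-binding GTPase of cell-autonomous defence, measured 5.30, 5.13 and 5.18 in the sham samples, 5.50 and 5.80 on day 1, 4.12, 4.73 and 6.06 on day 3, 5.71 and 5.59 on day 5, 5.59 and 6.36 on day 12, and 5.42 and 5.39 on day 26. As for Oasl2, 9 of 11 proton samples were above every sham sample and day 3 replicates 1 and 2 were below. Its differences were 0.45 ± 0.42 on day 1, 0.45 ± 0.42 on day 5 and 0.77 ± 0.42 on day 12. With the other-cell covariate the day 1 value was -0.11, and without proton day 3 replicate 1 the day 3 value, -0.23 ± 0.37, became 0.19. Irf1, the transcription factor that drives many gamma-induced genes, measured 5.98, 6.25 and 5.79 in the sham samples, 6.21 and 6.86 on day 1, 5.74, 5.54 and 7.28 on day 3, 6.04 and 6.20 on day 5, 6.12 and 7.32 on day 12, and 6.84 and 6.26 on day 26. Its SD was 0.95 within day 3 and 0.85 within day 12, above its differences of 0.52 ± 0.47 on day 1 and 0.55 ± 0.47 on day 26, which were -0.22 and -0.19 with the other-cell covariate. A second, dimmer probe set of Irf1 (mean 4.92) gave a mean proton minus sham difference of -0.03 against 0.36 for the one used. Irf8, a factor of myeloid and gamma-induced transcription, measured 5.53, 5.51 and 5.82 in the sham samples, 5.53 and 5.56 on day 1, 5.71, 5.12 and 5.38 on day 3, 5.57 and 5.88 on day 5, 5.67 and 6.03 on day 12, and 5.91 and 5.80 on day 26. It had a late minus early difference of 0.38 ± 0.14 (adjusted p = 0.293).

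Among the MHC class I genes, Tap1 had the largest difference on day 26. It measured 6.01, 6.89 and 6.09 in the sham samples, 6.78 and 6.45 on day 1, 6.74, 6.19 and 5.68 on day 3, 6.45 and 6.99 on day 5, 6.82 and 6.79 on day 12, and 7.34 and 7.02 on day 26. Both day 26 samples exceeded every sham sample, although the second sham sample of day 1, at 6.89, was close to them. The difference was 0.85 ± 0.31, 1.81-fold (adjusted p = 0.266, in a range of 0.0606 to 0.719 over the alternatives), and late minus early days gave 0.59 ± 0.23 (adjusted p = 0.320) with every late sample above every early one. Tapbp measured 8.08, 8.23 and 7.81 in the sham samples, 8.25 and 8.64 on day 1, 8.11, 8.05 and 8.82 on day 3, 8.36 and 8.46 on day 5, 8.23 and 8.77 on day 12, and 8.72 and 8.52 on day 26. In 8 of 11 proton samples it was above every sham sample and in none was it below. The difference was 0.57 ± 0.23 on day 26 (adjusted p = 0.295, in a range of 0.0482 to 0.734 over the alternatives) and 0.42 ± 0.17 in the mean of the proton days (adjusted p = 0.378), where it was the sole member with an unadjusted p under 0.05. B2m, the most abundant transcript of the set by signal, measured 10.98, 11.09 and 10.82 in the sham samples, 11.07 and 11.20 on day 1, 10.91, 10.52 and 11.38 on day 3, 10.95 and 11.25 on day 5, 10.94 and 11.63 on day 12, and 11.46 and 11.20 on day 26. Its difference was 0.36 ± 0.23 on day 26 with both samples above sham.

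On day 26 the immunoproteasome subunits had smaller differences than Tap1, Tapbp and B2m, while on day 3 Psmb8 had the largest of the 6. Psmb9 measured 6.09, 6.40 and 6.00 in the sham samples, 6.13 and 6.03 on day 1, 5.94, 5.88 and 5.89 on day 3, 6.07 and 6.17 on day 5, 6.24 and 6.39 on day 12, and 6.54 and 6.18 on day 26. All 3 day 3 samples lay below every sham sample (-0.26 ± 0.13, adjusted p = 0.577), and late minus early days gave 0.35 ± 0.11 (adjusted p = 0.226), again with no overlap. Psmb8 measured 5.57, 5.72 and 5.36 in the sham samples, 5.48 and 5.69 on day 1, 5.53, 5.13 and 4.89 on day 3, 5.61 and 5.61 on day 5, 5.42 and 5.80 on day 12, and 5.74 and 5.67 on day 26, with -0.37 ± 0.17 on day 3 and 0.15 ± 0.19 on day 26. Tap2, the partner of Tap1, measured 6.45, 6.54 and 6.32 in the sham samples, 6.43 and 6.65 on day 1, 6.60, 6.15 and 5.94 on day 3, 6.21 and 6.46 on day 5, 6.51 and 6.75 on day 12, and 6.70 and 6.62 on day 26. It had -0.20 ± 0.16 on day 3, 0.22 ± 0.18 on day 26 and 0.26 ± 0.13 in late minus early days. Psmb9, Tap1, Psmb8 and Tap2 lie in that order on chromosome 17 with no other protein-coding gene between them, and all 4 had a difference below 0 on day 3 and above 0 on days 12 and 26.

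On day 26, 16 of the 30 members had both samples above every sham sample and none had both below, where 24.7% and 14.1% of all genes did. The 16 included 10 type I genes, Irf1 and Gbp3 of the type II genes, and Tap1, Tap2, Tapbp and B2m. The share above sham of all genes on that day was itself high, at 58.8%. The 12 macrophage markers had a median difference of 0.53 on day 26, all 12 above 0, the 12 endothelial markers 0.47, all above 0, and the 5 T and NK cell markers 1.15, all above 0. In the other day contrasts, 7 members were above and 3 below all sham samples on day 1 (14.2% and 14.9% of all genes), 5 and 5 on day 5 (16.8% and 15.8%), and 4 and 0 on day 12 (9.92% and 11.2%). In late against early days 3 members, Cxcl9, Tap1 and Psmb9, did not overlap and were above (1.48% of all genes), and none was below (2.59%). In the mean of the proton days none had every proton sample above or below every sham sample (0.826% and 0.909%).

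In late against early days, 29 of 30 members lay above 0, against 56.8% of all genes, with class medians of 0.33 for type I, 0.38 for type II and 0.27 for MHC class I genes and 0.03 for all genes. The 7 members with an unadjusted p under 0.05, all above 0 (6.86% of all genes), were Cxcl9, Irf7, Psmb9, Irf8, Tap1, Xaf1 and Ifit2. The count was 21 without proton day 3 replicate 3 (14.7% of all genes in that fit) and 6 with the other-cell covariate (23%), in a range of 0 to 21 over the alternatives tried. The macrophage markers had a median of 0.23 in this contrast, the endothelial markers 0.32 and the T and NK cell markers 0.67.

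**Figure D3:**
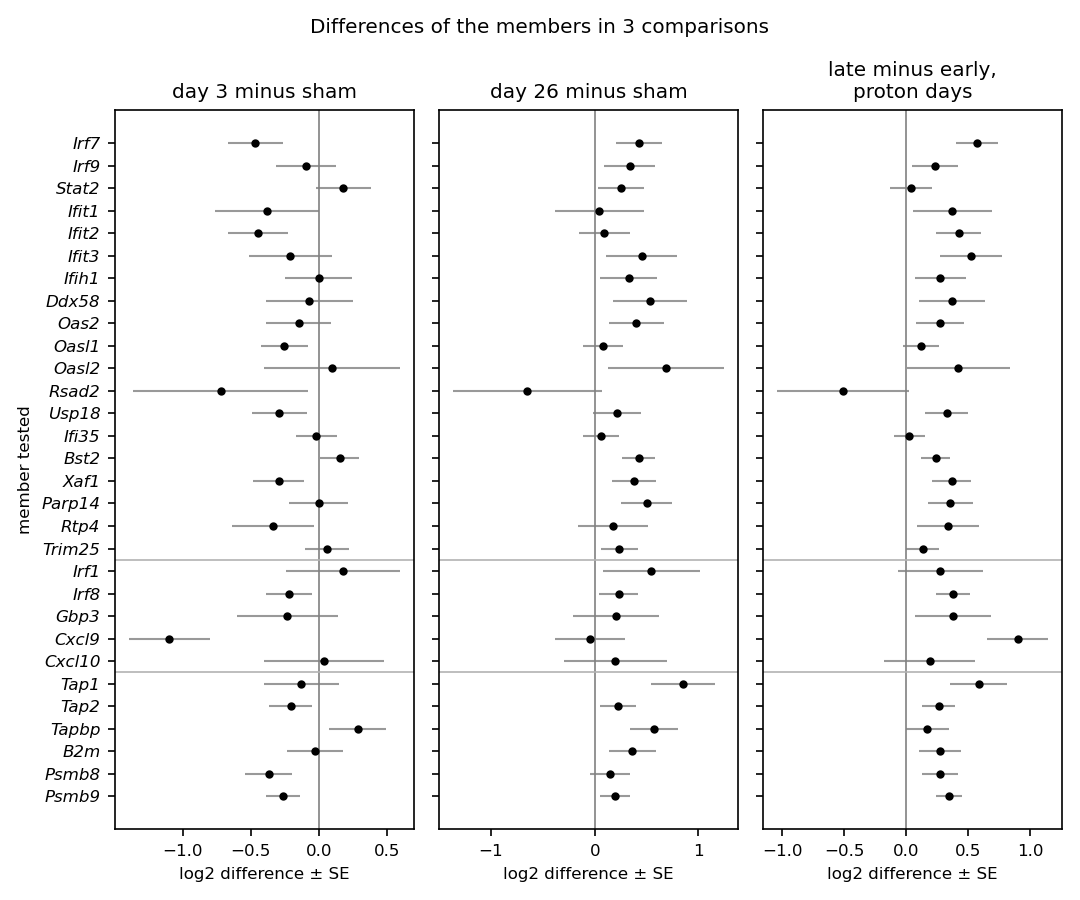
Log2 difference with its standard error (horizontal axes) for each of the 30 tested members in 3 comparisons: day 3 minus sham, day 26 minus sham, and late minus early proton days. Gray lines separate the type I, type II and MHC class I genes. Cxcl9 is farthest left on day 3 at -1.10, Tap1 is farthest right on day 26 at 0.85, and in the last comparison every member but Rsad2 lies right of 0.

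The spread within groups was carried by a few arrays. Of the 30 members, 23 (76.7%) had their highest signal in proton day 12 replicate 2 or proton day 3 replicate 3, where 21.9% of all genes did. Nearly all of these, 21 members (70%), peaked in proton day 12 replicate 2. Only 2 members (6.67%) peaked in proton day 3 replicate 3, against 10.9% of all genes, and 3 members had their lowest signal there. The lowest signal of 21 members (70%) fell in proton day 3 replicate 1 or 2, where 15.0% of all genes had theirs. These arrays were picked after the values of the members were seen. A share above that of all genes follows in part from that choice, and it was not tested. Proton day 12 replicate 2 exceeded replicate 1 in 29 of 30 members, with median log2 gaps of 0.67 for type I, 1.21 for type II and 0.32 for MHC class I genes. Markers of other cells moved with it: the gap was 1.26 over macrophage, 0.78 over endothelial and 1.01 over fibroblast markers, 0.01 over cardiomyocyte markers and 0.01 over all genes. The part of such cells in these gaps was not tested. Proton day 3 replicate 3 exceeded the mean of replicates 1 and 2 by a median of 0.71 for type I and 1.58 for type II genes, with 1.41 for macrophage, 1.09 for endothelial and 1.03 for fibroblast markers. The members had a median SD over the samples of 0.31 against 0.18 for all genes tested.

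The antigen-processing genes departed from this in day 3 replicate 3. There Tap1 was 0.78 lower than the mean of replicates 1 and 2, Tap2 and Psmb8 were each 0.44 lower, and Psmb9 differed by -0.01, whereas Tapbp and B2m were 0.74 and 0.67 higher. For Tap1, Tap2 and Psmb8 that sample held the lowest signal of all 14. The mean deviation of Tap1, Tap2, Psmb8 and Psmb9 was 0.03, -0.34 and -0.57 in day 3 replicates 1, 2 and 3, while that of the type I genes was -0.41, -0.55 and 0.32 and that of the macrophage markers -0.89, -0.70 and 0.51. The T and NK cell markers, at -0.15, -0.76 and -0.85, had the order of the antigen-processing genes in these 3 samples. So did the cardiomyocyte markers, over a far narrower range (0.0461, 0.0158 and 0.0151). On day 5 the T and NK cell markers stood at 0.75 and 0.60, and the antigen-processing genes at -0.09 and 0.13. These single-sample contrasts were chosen after their values were seen and were not tested.

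**Figure D4:**
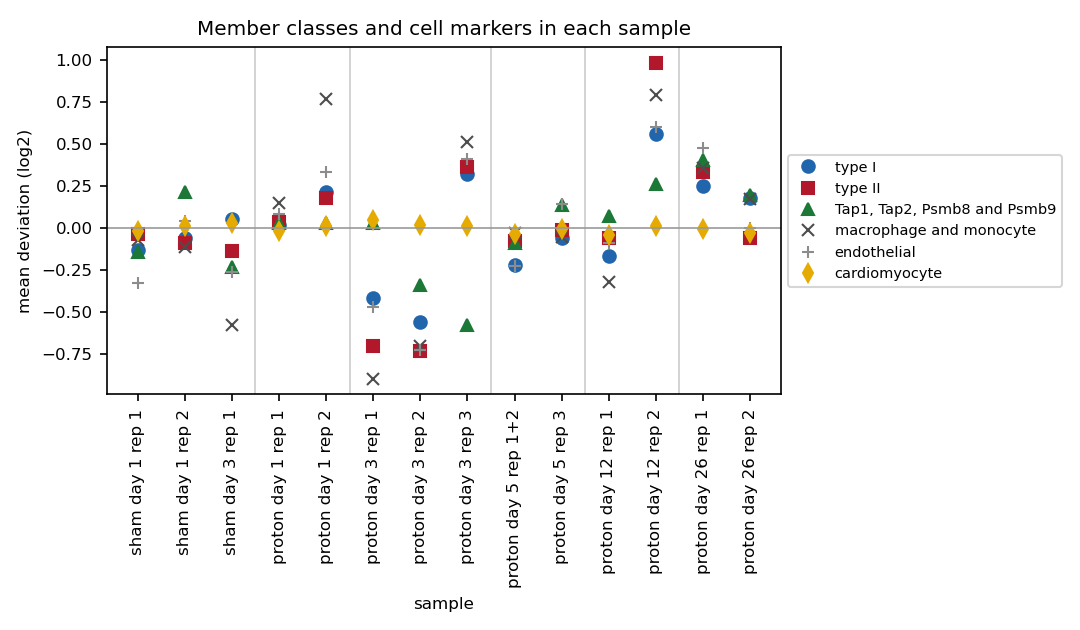
Mean deviation from the gene's own mean (log2, vertical axis) of the type I genes, the type II genes, the 4 antigen-processing genes of chromosome 17 and 3 marker lists in each of the 14 samples (horizontal axis). Type I and type II genes are low in day 3 replicates 1 and 2 and high in day 3 replicate 3 and day 12 replicate 2, as are macrophage and endothelial markers. The cardiomyocyte markers stay near 0, and the antigen-processing genes are at -0.57 in day 3 replicate 3.

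The genes upstream of the members gave few signals. Of 21 interferon genes listed, 15 had a value and 2 (Ifna5 and Ifnl2) lay above the filter. Ifnb1 and Ifng, which encode interferon beta and gamma, had mean log2 signals of 2.96 and 4.76, below it. Of 18 receptors and signalling genes 17 were tested, and none passed an adjusted p of 0.05 in the fit without a covariate. Jak1, the kinase shared by both receptors, measured 9.07, 9.16 and 9.00 in the sham samples, 8.94 and 9.00 on day 1, 9.15, 9.26 and 9.20 on day 3, 8.87 and 9.04 on day 5, 9.23 and 9.35 on day 12, and 9.32 and 9.27 on day 26. Its difference was 0.22 ± 0.08 on day 26 and 0.20 ± 0.06 in late minus early days (adjusted p = 0.212). Ifnar1, a type I receptor chain, differed by 0.37 ± 0.15 on day 1, the 1 receptor or signalling gene above sham at an unadjusted p under 0.05 there (2.55% of all genes), and Stat3, a factor of cytokine signalling, by 0.34 ± 0.11 on day 3. In late minus early days Stat3 lay on the other side of 0 from Jak1, at -0.32 ± 0.10 (adjusted p = 0.222). With the other-cell covariate Stat3 passed the threshold on day 3 (adjusted p = 0.0409, in a range of 0.0409 to 0.940 over the alternatives), in late minus early days (0.0132, in a range of 0.0132 to 0.580) and in both joint tests (0.0269 and 0.0303). On day 3 and in late minus early days that fit called more genes of any kind than the main fit. Those shares are given with Cxcl9 above. Of 17 genes of nucleic acid sensing 11 were tested and none was called. Ticam1 (TRIF), the adaptor of TLR3, had 0.29 ± 0.08 in late minus early days, with every late sample above every early one.

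Another list of 39 interferon-stimulated genes, 27 of them tested, had medians of 0.14, -0.05, 0.13, 0.33 and 0.33 on days 1, 3, 5, 12 and 26, with 22, 7, 19, 25 and 24 of the 27 above 0. In late minus early days 26 of 27 lay above 0 (median 0.25). None passed an adjusted p of 0.05 in any contrast. On day 3 the guanylate-binding proteins differed in sign: Gbp9 was below every sham sample (-0.49 ± 0.14, adjusted p = 0.340) and Gbp4 above every one (0.57 ± 0.22, adjusted p = 0.473). On day 26 Dtx3l, the partner of the ADP-ribosyltransferase PARP9, differed by 0.33 ± 0.13, Gbp4 by 0.59 ± 0.25 and Cmpk2 by 0.47 ± 0.21, each with both samples above sham.

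Of 15 further MHC class I genes, 11 were tested. At an unadjusted p under 0.05, 7 of the 11 passed on day 26, 6 above sham and 1 below, where 8.6% and 5.67% of all genes did. On day 5 there were 3 above and 2 below (4.21% and 4.78% of all genes), and on day 12 there were 4 above (3.39%) and 1 below (4.62%). None passed after adjustment in this fit. On day 26 the chaperones of the peptide-loading complex had the smallest p-values of this list. Calr (calreticulin) measured 10.06, 10.18 and 10.06 in the sham samples, 10.24 and 10.24 on day 1, 10.11, 10.24 and 10.40 on day 3, 10.35 and 10.39 on day 5, 10.31 and 10.63 on day 12, and 10.75 and 10.47 on day 26. Of 11 proton samples 10 were above every sham sample, and the day 26 difference was 0.51 ± 0.11, 1.42-fold (adjusted p = 0.106, in a range of 0.0137 to 0.636 over the alternatives). Pdia3 (ERp57), a disulfide isomerase, measured 8.95, 9.04 and 8.77 in the sham samples, 9.26 and 9.26 on day 1, 9.06, 8.98 and 9.41 on day 3, 9.31 and 9.42 on day 5, 9.19 and 9.78 on day 12, and 9.64 and 9.47 on day 26. Its difference was 0.64 ± 0.16 on day 26, 1.55-fold (adjusted p = 0.150, in a range of 0.0096 to 0.662). Both proteins also fold other glycoproteins. H2-T10 and H2-Q4, class I genes outside the classical K, D and L loci, differed by 0.53 ± 0.16 (adjusted p = 0.196) and 1.00 ± 0.37 (adjusted p = 0.270) on day 26, although probes of such related genes may share transcripts. H2-T10 passed on day 26 with array weights (adjusted p = 0.0387, in a range of 0.0387 to 0.662 over the alternatives) and in late minus early days with the other-cell covariate (0.0293, in a range of 0.0293 to 0.484). The share of all genes called with array weights is not given here, and that with the covariate is given with Cxcl9. The proteasome activator subunits lay on the other side of sham, with -0.35 ± 0.12 for Psme1 and -0.31 ± 0.11 for Psme2 on day 5, all samples below sham, and Psme2 was the gene below sham on day 26 (-0.25 ± 0.11).

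Nlrc5, the transactivator of MHC class I genes, measured 7.04, 7.15 and 7.18 in the sham samples, 7.23 and 7.32 on day 1, 7.54, 7.56 and 7.32 on day 3, 7.29 and 7.39 on day 5, 7.49 and 7.55 on day 12, and 7.47 and 7.41 on day 26. All 11 proton samples lay above the highest sham sample, as did 0.826% of all genes. The difference in the mean of the proton days was 0.29 ± 0.07 (adjusted p = 0.242), with 0.35 ± 0.09 on day 3 and 0.40 ± 0.10 on day 12. The array carries 19 probe sets for Nlrc5, of which the brightest was used, and they disagreed. Their proton minus sham differences ran from -0.23 to 0.39 with 11 of 19 above 0, and the mean of all 19 gave 0.07 ± 0.10 (adjusted p = 0.789). That mean was 1 of the alternatives, and the others used the brightest probe set. Over all of them the adjusted p of Nlrc5 ranged from 0.0719 to 0.820. The 6 tested MHC class I members, each with 1 probe set annotated to that gene alone (Tapbp has 2 more annotated to several genes, not used), had a median of 0.12 in the same contrast.

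The 4 members below the filter were read from a fit without it. Their group means lay between 3.73 and 4.77. None passed an adjusted p of 0.05, and the smallest value belonged to Dhx58 in late minus early days, 0.45 ± 0.19 (adjusted p = 0.458). Mx1 and Mx2, antiviral GTPases of the dynamin family, are defective in many inbred mouse strains.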

How the data were processed

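RNA from isolated left ventricular cardiomyocytes of mice exposed to protons or sham was hybridised to Affymetrix Mouse Gene 1.0 ST arrays. The authors deposited 1 log2 signal per probe set and array (34760 probe sets, values 0.123 to 12.9). The submitters' processing notes name MAS5. Its version, and any background correction or scaling, are not given in the sources used here. Arrays give no read depth, so their number limits the precision.

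Probe sets were named from the platform annotation: 21640 had 1 gene symbol, 1321 had several and 11799 had no entry. The brightest single-symbol probe set stood for each of 19937 genes, and 12102 genes with a mean above 5.00, the median of all probe sets, were tested. Of the 39 members, 37 matched the RefSeq gene table (GRCm38.p6). limma 3.58.1 (R 4.3.3) fitted 6 groups over 14 samples with a variance trend, with Benjamini-Hochberg adjustment of p over the 12102 genes (threshold 0.05, 8 residual degrees of freedom). Errors given with differences are limma's moderated standard errors, and all tests are two-sided. The fit was tested on simulated data.

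Every member is accounted for. Values in every sample are given for the 3 members of each class with the smallest p in each contrast and for a few set members (among them Irf7, Irf9, Ifit1, Ifit3, Oasl2, Irf1, Cxcl10, Tap1, Psmb9 and B2m), and Ddx58 was added after its values were seen. Genes of the pathway lists are named from the 3 with the smallest p per list and contrast. Members, lists and tests were chosen with earlier results of these data known. Replicate numbers were not used to pair the samples, except in the alternative with a block. Alternatives changed scaling, filter, probe set rule, variance model, weights, control, block, other-cell covariate and each array left out.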

Additional observations from a re-analysis of the deposited data

How the results depend on the processing

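Up to 30 alternatives were tried for each value. Of these, 1 left out proton day 3 replicate 3 and proton day 12 replicate 2 together and was chosen after these values were seen. They were the 2 highest arrays in mean deviation of the type I and of the type II genes. For the MHC class I genes, proton day 3 replicate 3 lay at -0.26. That fit kept only replicate 1 on day 12. The number of members passing the adjusted threshold was unchanged in 255 of 261 alternatives, and 3816 of 3859 single gene values kept their direction and side of the threshold. Class medians moved by less than the SD of the sample median within groups in 589 of 605. That SD was 0.29 for type I, 0.48 for type II and 0.17 for MHC class I genes, as large as many of the medians. A median could thus turn sign and still count as unchanged. The type I median of day 12 did so, from 0.23 to -0.012 without proton day 12 replicate 2. No member passed when any single array was left out. With a score of other-cell markers as a covariate, 1 member, Cxcl9, passed on day 3, in late minus early days and in any proton day against sham (0.95%, 3.3% and 1.32% of all genes). The medians were then -0.158 (type I) and -0.160 (type II) on day 1, 0.121 (type II) on day 12, and 0.0022 (type I) and -0.349 (type II) on day 26. Signs turned for Irf9 (-0.019), Irf1 (-0.225), Gbp3 (-0.111), B2m (-0.179) and Oasl2 (-0.172) on day 1, B2m on day 5 (-0.037), Irf1 (-0.194), Gbp3 (-0.349) and Oasl2 (-0.180) on day 26, and Irf1 (-0.084), Gbp3 (-0.043) and B2m (-0.040) in the mean of the proton days. Without the 2 highest arrays, 2 members passed on day 26 (Oasl2 and Tapbp), 4 in any proton day against sham (Cxcl9, Ddx58, Gbp3 and Oasl2) and 5 in any difference among days (Ddx58, Gbp3, Irf9, Oasl2 and Xaf1), where 2.62%, 2.55% and 2.54% of all genes did. Day 12 medians were then 0.045 (type II) and 0.073 (MHC class I), and Cxcl10 and B2m were -0.027 and -0.028. The filter at the 75th percentile left fewer members and gave medians of 0.518 (type I, day 1), 0.128, 0.469 and 0.304 (MHC class I, day 3, day 26 and the mean of the proton days). Sham of the same day alone gave 0.0114 for MHC class I on day 3. Leaving out 1 array at a time gave -0.336 to -0.056 for MHC class I on day 3, and on day 12 -0.012 to 0.618 for type I, 0.045 to 1.16 for type II and 0.073 to 0.391 for MHC class I. Signs turned for Gbp3 on day 3 (-0.776 to 0.192, turned without proton day 3 replicate 1), Irf8 and B2m on day 5 (-0.049 to 0.206 and -0.014 to 0.198, without proton day 5 replicate 3), and Cxcl10 and B2m on day 12 (-0.027 to 1.51 and -0.028 to 0.665, without proton day 12 replicate 2). Same-numbered samples deviated together, with a correlation over 0.1, in 9 of 26 pairs (median -0.083, from -0.722 to 0.457). In groups of 2 samples the deviations from the group mean mirror each other. The check therefore cannot show whether samples of the same number shared a batch or preparation. With the replicate number as a block and the sham day 3 array left out, 0 members passed in every contrast and B2m on day 5 was -0.177. The causes of these changes were not tested.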
